A study of Rattus norvegicus with 20 samples.

Results

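The soleus of contused rats that swam was compared with the soleus of contused rats that did not exercise. The 2 groups were chosen by their sample labels alone, and hold 8 of the 20 libraries of the series, 4 in each group. All rats were Sprague-Dawley. The 4 contusion rats had a laminectomy and a 25 g-cm contusion of the spinal cord at T2, did not exercise, and gave muscle 11.5 weeks after injury. The 4 swimming rats had the same contusion, swam on 5 days a week for 10 weeks from 2.5 weeks after injury, and gave muscle 13.5 weeks after injury. All rats were moved to small cages after 4 days, so restricted housing is shared by both groups. The labelled times differ by 2 weeks, and time and swimming cannot be told apart in this comparison. Levels in the other groups are given beside some results: 4 contused rats that walked in shallow water (13.5 weeks), 4 uninjured rats (labelled 11.5 weeks) and 4 rats with a complete transection at T2 (8.5 weeks).

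The soleus is a small calf muscle that works against gravity and is built mainly of slow, oxidative fibres. It is known to waste and to shift toward faster fibre types when load or nerve activity is withdrawn, as after spinal cord injury. In swimming, water carries much of the body weight while the limbs move, whereas walking in shallow water keeps the limbs partly loaded against a floor. The comparison asks what swimming adds to the contused state.

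RNA of whole muscle was sequenced after poly-A selection, and the deposited values are counts per gene. The counts carry Ensembl identifiers, and 0 of the 24613 identifiers could be paired with a gene symbol here. The labelled tissue could therefore not be checked against its markers, genes could not be grouped by function, and 4 genes are named by identifier. In whole muscle, fewer cells of a type and less RNA per cell cannot be told apart.

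Total counts ran from 22394223 to 35986860 in the contusion libraries and from 21165832 to 30649862 in the swimming libraries. Genes with a count numbered 15399 to 15602 and 15478 to 16103. The 50 most abundant genes of each library took 46.2 to 51.3% of its counts after contusion and 44.0 to 49.6% after swimming. Swimming library 2 stood apart from its group. In 346 of 13398 tested genes it was more than 2-fold above every other swimming library and in 475 more than 2-fold below every one, against 42 to 191 and 42 to 123 genes for the other swimming libraries.

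With swimming, 298 genes rose and 302 fell out of 13398 tested, which is 2.22% and 2.25% of the tested genes and 4.48% together (quasi-likelihood test of edgeR, Benjamini-Hochberg adjusted p below 0.05). Genes past this threshold are referred to as called. The genes that rose changed by more than those that fell. Their median log2 changes were 0.88 and -0.54 as scaled here, and 1.06 and -0.35 with library totals alone. These are sizes of genes that passed the threshold, and smaller changes can pass it where the measurement is more precise. The middle 50% of the log2 changes lay between 0.70 and 1.11 for the genes that rose, and between -0.64 and -0.46 for the genes that fell. A change of more than 1.5-fold was reached by 266 of the genes that rose and 109 of those that fell. A change of more than 2-fold was reached by 36.2% of the genes that rose and 4.97% of those that fell, and a change of more than 4-fold by 11 and 3 genes. The division into higher and lower depends on the scaling of the libraries: with library totals alone, 280 genes were higher and 19 lower, and the median log2 change of all genes moved from 0.01 to 0.19. With the compared groups alone in the fit, 248 genes were higher and 74 lower.

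The naming rule takes only called genes with no overlap between swimming and contusion libraries. For the 4 named genes that separation is therefore set by the rule and is no test. The highest change under the naming rule was in ENSRNOG00000050042. Its level was 4.14, 3.15, 10.2 and 0.472 CPM (counts scaled to the library size) in contusion libraries 1 to 4, and 16.2, 93.7, 20.5 and 20.8 CPM in swimming libraries 1 to 4. All 4 swimming libraries lay above all 4 contusion libraries, and swimming library 2 lay far above the rest. The gene rose 8.52-fold, by 3.09 on the log2 scale (SE 0.77, n = 4 each, edgeR adjusted p = 0.0369). Without swimming library 2 the log2 change was 2.11 and the call was lost (edgeR adjusted p = 0.109). The call was also lost without contusion library 1, 2 or 4, with only the compared groups fitted, and with no low-count filter. With the replicate number as a block it was lost too (edgeR adjusted p = 0.0596). Over the 18 alternatives the gene's edgeR, DESeq2 or limma adjusted p ran from 3.58e-03 to 0.114. Uninjured muscle held 1.08 ± 0.886 CPM, walking muscle 6.61 ± 2.81 and transected muscle 10.2 ± 1.93 (SD, n = 4 each). The lowest swimming library was thus above the highest library of each other group, which were at 1.84, 10.2, 10.2 and 13.1 CPM in uninjured, contusion, walking and transection. The difference between swimming and walking, 2.51 on the log2 scale with an SE of 0.75, missed the threshold (edgeR adjusted p = 0.194).

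The second gene that rose, ENSRNOG00000017828, was scarce. It stood at 0.192, 0.647, 0.544 and 0.250 CPM in contusion libraries 1 to 4, which is 4 to 16 counts a library. In swimming libraries 1 to 4 it stood at 2.61, 0.706, 3.46 and 5.25 CPM, or 16 to 188 counts. The groups did not overlap, though swimming library 2 was only just above the highest contusion library. The gene rose 7.40-fold, with 2.89 as the log2 change and an SE of 0.64 (edgeR adjusted p = 0.0234). The call was lost without contusion library 1, 2 or 4, at edgeR adjusted p = 0.0908, 0.0577 and 0.0625. In walking muscle the level was 1.45 ± 1.03 CPM (SD, n = 4), between 0.509 and 2.82 CPM, so walking overlapped both groups. Uninjured libraries ran from 0.257 to 1.28 CPM and transection libraries from 0.485 to 1.27 CPM. Swimming library 2, at 0.706 CPM, lay within both ranges. The difference from walking was 1.07 on the log2 scale with an SE of 0.57 and missed the threshold (edgeR adjusted p = 0.369).

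The lowest change was in ENSRNOG00000006051. Its level was 6.06, 3.39, 5.14 and 7.44 CPM in contusion libraries 1 to 4 and 0.791, 0.265, 0.469 and 1.84 CPM in swimming libraries 1 to 4. Every swimming library lay below every contusion library. Swimming was 6.26-fold lower, with -2.65 as the log2 change and an SE of 0.49 (edgeR adjusted p = 0.0163). This call held in 17 of 18 alternatives and was lost without contusion library 1 (edgeR adjusted p = 0.0605). Uninjured muscle was at 5.67 ± 1.48 CPM, near contused muscle, while walking and transected muscle were at 2.16 ± 0.856 and 1.90 ± 1.15 CPM (SD, n = 4 each). Every swimming library also lay below every uninjured library, where the lowest value was 4.00 CPM. The walking libraries, from 1.33 to 3.36 CPM, overlapped swimming, and the difference of -1.29 on the log2 scale, with an SE of 0.49, missed the threshold (edgeR adjusted p = 0.248).

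ENSRNOG00000007943 was the next lowest. It stood at 1.54, 3.07, 1.42 and 1.61 CPM in contusion libraries 1 to 4 and at 0.578, 0.0883, 0.469 and 0.643 CPM in swimming libraries 1 to 4. That is 32 to 76 counts a library after contusion and only 2 to 23 after swimming. The groups did not overlap. The log2 change of -2.04 (SE 0.58) lay at the threshold (edgeR adjusted p = 0.0498), and the call was lost in 14 of 18 alternatives, among them each fit that left out a single library, with edgeR adjusted p up to 0.155. Uninjured muscle held more, 4.57 ± 0.834 CPM, and walking muscle 2.24 ± 1.16 CPM (SD, n = 4 each). Transection libraries 1 to 4 were at 0.679, 0, 0.309 and 0.634 CPM; a count of 0 allows up to 0.109 CPM in transection library 2, taken as 3 counts and for counting error only. The ranges of swimming and transection overlapped, and walking library 1, at 0.666 CPM, lay close to the highest swimming library, while walking libraries 2 to 4 lay at 2.07 to 3.23 CPM. The difference between swimming and walking was -2.28 on the log2 scale with an SE of 0.58 and missed the threshold (edgeR adjusted p = 0.161).

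**Figure D1:**
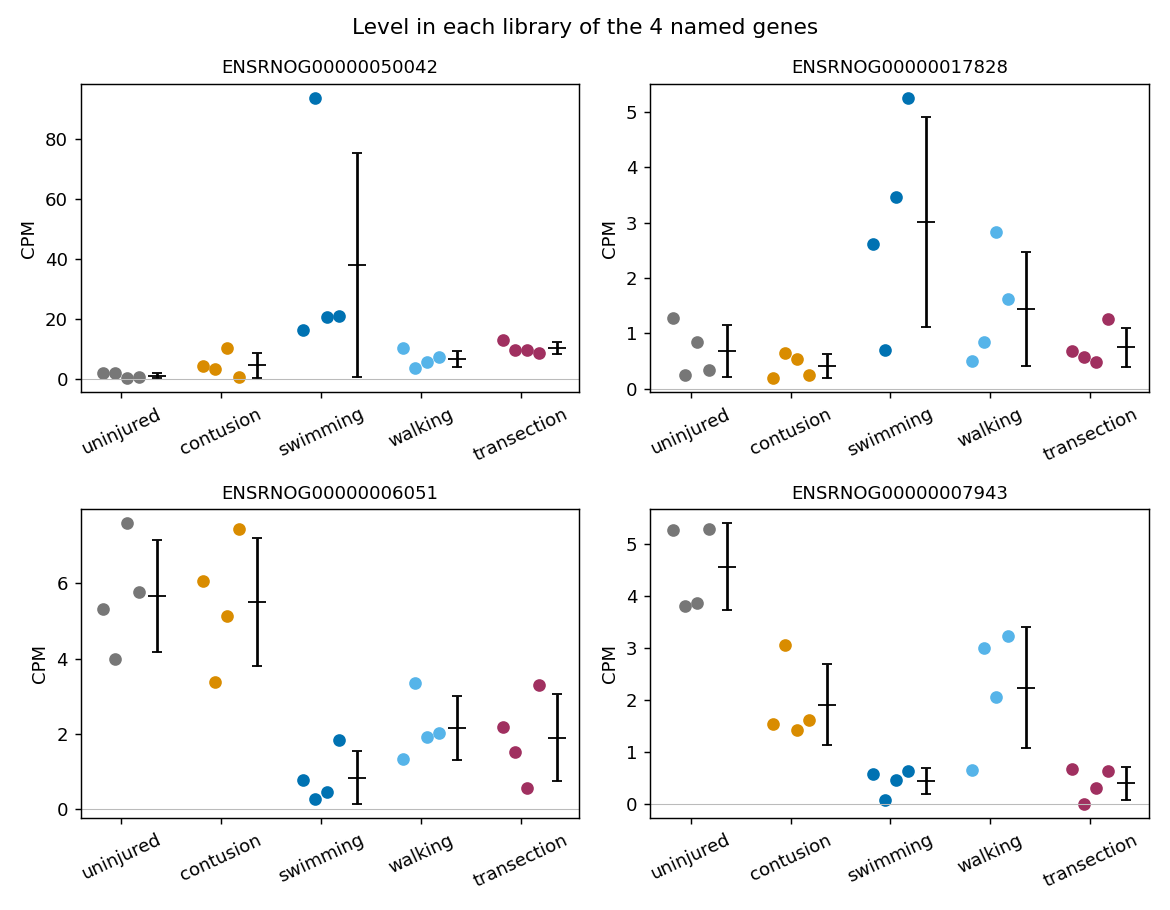
Level in CPM (vertical axis, linear, a scale for each panel) of the 4 named genes in every library of the 5 groups (horizontal axis); each point is a library, in order 1 to 4, and the black mark and bar are the mean and SD. Swimming libraries lie above contusion libraries in the upper panels and below them in the lower panels, a separation that the naming rule sets. Swimming library 2 reaches 93.7 CPM in the first panel.

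The gene with the smallest adjusted p, which the naming rule leaves out, was abundant and fell 3.49-fold. It stood at 3003 to 4420 CPM in the contusion libraries and at 648 to 1296 CPM in the swimming libraries. On the log2 scale it fell by 1.80 (SE 0.24, edgeR adjusted p = 3.21e-03). It was also the single gene called between swimming and walking in the edgeR fit of all 20 libraries, while other tools called more.

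The groups were also separate at many genes that were not called. In 1901 genes, 14.2% of those tested, the 4 swimming and 4 contusion libraries did not overlap: swimming was higher in 989 (7.38%) and lower in 912 (6.81%). Of the called genes, 279 of the 298 that rose and 279 of the 302 that fell were among them. Both measures compare the same libraries, so this is no independent support. Among all genes an unadjusted p under 0.05 was found for 3033, or 22.6%, of which 1556 were higher and 1477 lower.

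The share of genes called varied with abundance, as did the precision of the measurement. The tested genes were divided into 10 classes of nearly equal size by mean log2 CPM over the 8 libraries; CPM is not corrected for transcript length. The median SE was 0.57 for the least abundant genes, class 1, 0.19 in class 5 and 0.14 in class 9. The called share went from 0.448% in class 1 to 4.10% in class 5 and 7.84% in class 9. A change of more than 2-fold in either direction was measured for 215 genes of class 1, of which 6 were called, and for 29 genes of class 10, of which 4 were called. In classes 1 to 5, 5, 10, 24, 39 and 36 genes were called higher and 1, 4, 6, 7 and 19 lower. In classes 8, 9 and 10, 62, 73 and 68 genes were called lower and 34, 32 and 23 higher. With library totals alone this imbalance turned around, to 3, 1 and 6 genes called lower and 30, 30 and 27 higher in these classes.

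With the scaling used, abundant genes leaned toward lower values without regard to calls as well. Over all genes of class 10 the groups did not overlap at 46 genes with swimming higher and 234 with swimming lower, and in class 1 at 75 and 18 genes. The sign within a class depends on the scaling: the median log2 change of class 10 was -0.16 as scaled here and 0.03 with library totals alone. Relative to the median of all genes, class 10 lay at -0.17 and class 2 at 0.15. A change of scaling shifts all genes by nearly the same amount, so these relative values cannot show whether the sign holds. With swimming library 2 left out, they were -0.16 for class 10 and 0.16 for class 2.

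**Figure D2:**
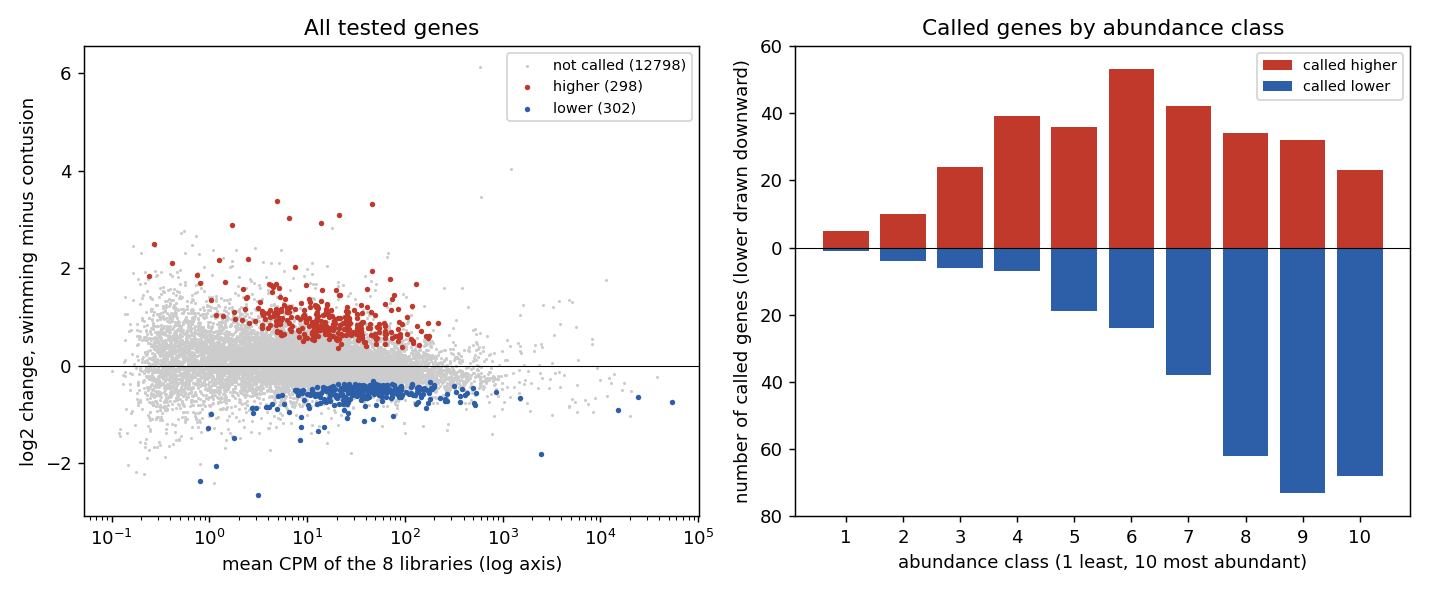
Left, log2 change of swimming minus contusion (vertical axis) against the mean CPM of the 8 libraries (horizontal, log axis) for every tested gene, with called genes in colour. Right, the number of called genes (vertical axis, genes called lower drawn downward) in the 10 abundance classes; genes called lower gather in classes 8 to 10, where they number 62, 73 and 68 with the scaling used, against 3, 1 and 6 with library totals alone.

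The called genes made up a small part of the RNA on the higher side and a large part on the lower side. The 298 genes that rose held 0.589 ± 0.0520% of the counts after contusion and 1.20 ± 0.124% after swimming (SD, n = 4 each). The 302 genes that fell held 14.4 ± 1.71% after contusion and 9.93 ± 0.834% after swimming. In walking muscle these shares were 0.732 ± 0.199% and 11.9 ± 0.313%. The genes were chosen for their difference between swimming and contusion, so these shares describe them and are no test.

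The level of the called genes was also read in each library, as the median of log2 CPM minus the gene's mean over all 20 libraries. For the genes that rose, swimming libraries 1 to 4 lay at 0.60, 0.83, 0.63 and 0.78, and contusion libraries 1 to 4 at -0.25, -0.17, -0.03 and -0.03. For the genes that fell, swimming libraries lay at -0.34, -0.52, -0.41 and -0.27, and contusion libraries at 0.24, 0.16, 0.08 and 0.16. The gap between these groups is set by the choice of genes. Within the groups, swimming library 2 was the most extreme on both sides, and contusion library 1 was the most extreme of the contusion libraries on both sides. Swimming library 2 was the highest swimming library for 42.3% of the genes that rose and the lowest for 54.6% of those that fell, against 29.5% and 32.5% over all tested genes. Contusion library 1 was the lowest contusion library for 51.0% of the genes that rose and the highest for 43.4% of those that fell, against 23.6% and 23.4% over all tested genes.

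The levels of the other 12 libraries did not enter the difference that chose these genes, though they entered the estimate of spread. Walking library 1 lay at 0.47 for the genes that rose and -0.14 for those that fell, toward the swimming libraries. Walking libraries 2 to 4 lay between -0.06 and 0.04 and between -0.04 and 0.08. For the genes that fell, walking libraries 2 and 3 lay below every contusion and uninjured library. For the genes that rose, they lay above every contusion library but within the uninjured range. Walking library 4 overlapped contusion and uninjured libraries on both sides. The mean of the 20 libraries includes the swimming libraries, so a value of 0 is not a neutral level. Uninjured libraries lay between -0.25 and 0.07 for the genes that rose and between 0.08 and 0.31 for those that fell, over much the same range as contusion libraries. For the genes that rose, transection libraries ran from -0.96 in library 3 to -0.24 in library 1, so that library 1 overlapped the uninjured and contusion libraries; they lay at 0.02 to 0.17 for the genes that fell. Transection library 3 had the fewest genes with a count of the 20 libraries, at 13837.

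**Figure D3:**
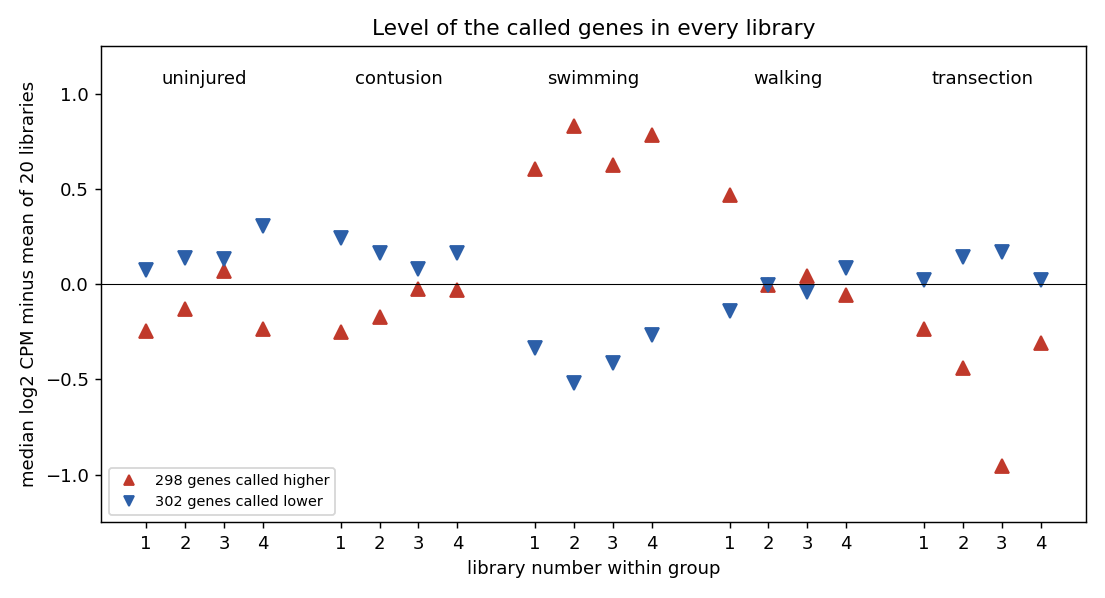
Median log2 CPM minus the mean of 20 libraries (vertical axis) of the 298 genes that rose (triangles pointing up) and the 302 that fell (pointing down) in each library (horizontal axis, by group). Swimming libraries lie at 0.60 to 0.83 and at -0.52 to -0.27, which the choice of genes sets, and walking library 1 lies at 0.47 and -0.14, apart from walking libraries 2 to 4.

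Swimming libraries lay farther from each other than contusion libraries did. The median absolute log2 difference between 2 libraries ran from 0.25 to 0.41 over the 6 pairs of swimming libraries and from 0.19 to 0.28 over the 6 pairs of contusion libraries. Between a swimming and a contusion library it ran from 0.26 to 0.43 over 16 pairs, a range that overlapped that of the swimming pairs. The medians were 0.31 over swimming pairs, 0.25 over contusion pairs and 0.35 across the groups. The 3 pairs with swimming library 2 gave 0.29, 0.41 and 0.36, and the other swimming pairs 0.28, 0.25 and 0.32. The SD of log2 CPM over 4 libraries was larger in swimming than in contusion for 65.7% of genes, with medians of 0.29 and 0.22. These are descriptions of 4 libraries a group, and the difference in spread was not tested.

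How many genes passed the threshold depended on single libraries, while the median sizes of change over the called genes moved little. Without contusion library 1, 1 gene was called, which was the gene with the smallest adjusted p; without contusion library 2, 65 genes; without contusion library 4, 54; and without swimming library 2, 108. In those fits the 600 genes kept their direction, and 600, 600, 600 and 598 of them had an unadjusted p under 0.05 in that direction. Any 2 of these fits share most libraries, so this is no independent support. Without both swimming library 2 and transection library 3, 634 genes were called, 416 of them among the 600 in the same direction. The fall to 108 without swimming library 2 thus also depended on a library outside the 2 compared groups. Over all 8 fits that left out a library, the median log2 change was 0.82 to 0.95 for the genes that rose and -0.56 to -0.49 for those that fell. What moved was the adjusted p: its median over the 600 genes was 0.0343 with all libraries and 0.103 without contusion library 1, both from edgeR. In the edgeR fit as reported, with all libraries, no adjusted p was below 3.21e-03. The smallest adjusted p was 1.67e-10 with DESeq2 and 6.05e-05 with voom and sample weights. Genes called in all 7 fits that kept contusion library 1 numbered 34, of which 17 rose and 17 fell. Other tools called more: 1203 genes passed with DESeq2 and 1755 with voom and sample weights in limma, and 587 of the 600 genes were called by all 3 tools in the same direction.

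**Figure D4:**
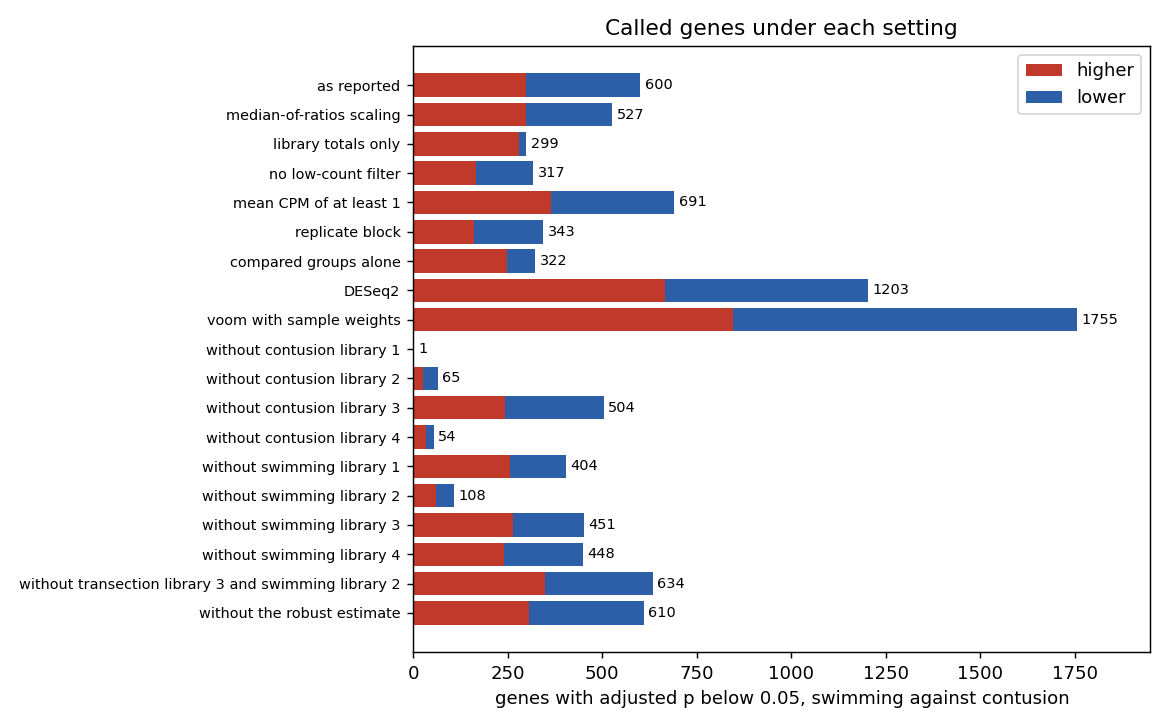
Number of genes with adjusted p below 0.05 for swimming against contusion (horizontal axis), divided into higher and lower, as reported and under each of 18 alternatives (vertical axis). The bars shrink to 1, 65, 54 and 108 genes without contusion library 1, 2 or 4 or swimming library 2, and reach 1203 and 1755 with DESeq2 and voom. Without both swimming library 2 and transection library 3 the bar stands at 634.

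Large changes that were not called were common. Of 588 genes with a change of more than 2-fold, 452 were higher and 136 lower with swimming, and 465 of the 588 were not called. Without swimming library 2, 255 of these 465 were still past 2-fold in the same direction, against 364 to 415 when any other library of the groups was left out. Among the 123 called genes past 2-fold, 81 were still past it without swimming library 2, and 104 to 120 without any other library. Swimming library 2 was more than 4-fold above every other swimming library at 71 genes and more than 4-fold below every one at 148, against 5 to 43 and 0 to 6 for swimming libraries 1, 3 and 4.

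Swimming and walking were both sampled at 13.5 weeks, so their comparison holds labelled time constant. It called 1 gene, 0.00746% of those tested, the abundant gene that fell with swimming. That gene stood at 2053 to 4341 CPM after walking, above every swimming library, with swimming minus walking at -1.69 on the log2 scale (SE 0.24, edgeR adjusted p = 8.04e-03). Its level after walking, 3517 ± 1006 CPM, was near those of contusion at 3800 ± 614 and uninjured at 3437 ± 885 (SD, n = 4 each). The call was lost with the compared groups alone and without walking library 4. Without walking library 1, edgeR called 298 genes between swimming and walking, 197 higher and 101 lower. Among the walking libraries, that library lay nearest to swimming at the called genes. DESeq2 called 140 and voom 315 with all libraries. For the other called genes of swimming against contusion, a difference from walking was not shown with edgeR and all libraries. An unadjusted edgeR p under 0.05 between swimming and walking was found for 2052 of the tested genes, or 15.3%.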

How the data were processed

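Soleus RNA from 20 rats was sequenced as stranded poly-A libraries, per the labels' protocols. The authors deposited raw whole-number counts for each Ensembl identifier. The submitters' processing notes list HTSeq, FastQC 0.10.1 and the build rn6. Aligner, annotation and strand setting are not given in the sources used here. How reads of genes that overlap or have near-identical copies were counted is therefore not known. Columns were matched to samples by label. No row lacked a gene identifier (0 of 24613), and 18618 had a count in any library. Pairs of libraries within the 2 groups differed by 31.0 to 532 in chi-square per degree of freedom, far above counting error.

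All 20 libraries entered a fit with a mean per group (edgeR 4.0.16, R 4.3.3, quasi-likelihood F test with robust spread, 15 residual degrees of freedom), with trimmed-mean-of-M-values scaling and filterByExpr at a minimum count of 10. This left 13398 genes, over which p-values were adjusted (Benjamini-Hochberg, threshold 0.05). Fold changes use a prior count of 0.125; SE is the size of the change over the root of the F statistic. CPM uses scaled library sizes, and log2 CPM a prior count of 2. The fit did not pair libraries by replicate number. Alternatives used DESeq2 1.42.0 and limma 3.58.1; fits were tested on simulated data, and figures drawn with matplotlib 3.10.9.

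The gene table used for names matched 0 of 24613 identifiers, so 37 gene and marker lists could not be applied. The naming rule then takes the 2 highest and 2 lowest changes among called genes with a mean of at least 1 CPM over the 8 libraries and no overlap between groups. Members and lists were chosen with earlier results of these data known. The labels and design text describe muscle from each animal; whether RNA was pooled is not given in the sources used here.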

Additional observations from a re-analysis of the deposited data

Results flagged for a closer look

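The 38 groups of 4 values examined were CPM of the named genes in 5 groups, and library measures in swimming, contusion and walking. In 3 of them, 1 library lay far outside the rest. A rate of 1 in 20 would give about 1.9 if the groups of values were independent and unselected. The named genes were chosen by their swimming and contusion values, and the library measures share libraries. The 2 numbers therefore cannot be compared as a test. Swimming library 2 held 93.7 CPM of ENSRNOG00000050042, the next highest 20.8. Contusion library 2 held 3.07 CPM of ENSRNOG00000007943, the next highest 1.61. Walking library 4 held 36604027 counts, the next highest 23665744.

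The abundant gene with the smallest adjusted p differed between the exercise groups by the direct test, with a log2 difference of -1.69 for swimming minus walking.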

How the results depend on the processing

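For swimming against contusion, 600 genes were called, and 8 of 18 alternatives gave a count within 1.5 times of it. The count was 299 with library totals alone, 322 with the compared groups alone, 317 with no filter on low counts, 1203 with DESeq2, 1755 with voom, and 1 to 504 with a library left out. For swimming against walking, 1 gene was called. The count was 0 with the compared groups alone, where 1587 genes had an unadjusted p under 0.05 with edgeR, 140 with DESeq2, 315 with voom, and 0 to 298 with a library left out. The other alternatives, 13 of 18, gave 1. With the replicate number as a block, 343 genes were called for swimming against contusion, 330 of them among the 600, and 1 for swimming against walking. ENSRNOG00000050042 and ENSRNOG00000007943 were not called with the block (edgeR adjusted p = 0.0596 and 0.0703). Same-numbered swimming and contusion libraries correlated in their deviations from the group means at 0.05 to 0.43. Of the 4 swimming libraries, 2 were closest to their own number. Whether libraries of the same number have more in common than the number was not tested. Whether to use the robust estimate of spread was not fixed beforehand. It was used in the reported fit because it matched the 600 calls of an earlier report on the series. The fit without the robust estimate was also chosen after seeing the data and called 610 genes. No named gene changed direction in any of the 18 alternatives. The named genes were chosen for large changes with no overlap between groups, so this is no independent support. ENSRNOG00000050042, ENSRNOG00000017828, ENSRNOG00000006051 and ENSRNOG00000007943 lost their call in 8, 3, 1 and 14 of them. In the least abundant class the median SE was 0.57, and 6 of 215 genes past 2-fold were called; the part of depth in this was not tested.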

Other observations

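Below the low-count filter, 13 genes had no count in any contusion library and a count in all 4 swimming libraries, and 5 genes the reverse. Their counts were few, with a median sum over the 4 libraries of 7 in both sets and a highest sum of 13 and 20. For walking against contusion the numbers were 8 and 6 genes. No gene of these sets was abundant enough to be tested (0 in each), and counts this low allow no statement that a gene was silent in any group.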
